A study of Arabidopsis thaliana with 12 samples.

Results

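SAUR19, SAUR20, SAUR21, SAUR22, SAUR23 and SAUR24 are 6 genes of the SMALL AUXIN UP RNA family that stand together on chromosome 5 of Arabidopsis thaliana, and they were chosen by locus identifier as 6 of the 27655 genes in the expression table. The RNA came from whole seedlings of wild type Columbia, so every group shares one genotype and mixes all seedling tissues. Seedlings grew at 21°C in days of 8 h light and 16 h dark until day 7, and all of them were harvested at ZT13, in the dark phase, 12 h after the treatments began at ZT1 (ZT counts hours from lights on). The 4 groups of 3 libraries stayed at 21°C, stayed at 21°C with mannitol, moved to 27°C, or moved to 27°C with mannitol. Mannitol, a sugar alcohol (dose not given in the sources used here), makes water harder for roots to take up.

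SAUR genes are small, mostly intronless plant genes whose short-lived transcripts build up quickly when auxin, a growth hormone, is perceived. SAUR19-type proteins bind and inhibit phosphatases of the PP2C.D group, which otherwise hold the plasma membrane proton pumps (the H+-ATPases, AHA) in a less active state, and a more active pump acidifies the cell wall and allows cells to expand. In the warm growth response of seedlings, PIF4, a transcription factor, and YUC8, an auxin biosynthesis enzyme, act upstream of these genes. The study's title names drought, thermomorphogenesis (growth in moderate warmth) and ELF3, a thermosensory repressor of PIF4.

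The 6 genes lie within 21536 bases of RefSeq's TAIR10.1 genome. SAUR19 (AT5G18010) occupies chr5:5962773-5963405 on the minus strand, SAUR20 (AT5G18020) chr5:5966183-5966785 on the minus strand, and SAUR21 (AT5G18030) chr5:5968352-5969190 on the plus strand. SAUR22 (AT5G18050) occupies chr5:5974341-5975087 on the minus strand, SAUR23 (AT5G18060) chr5:5975780-5976589 on the plus strand, and SAUR24 (AT5G18080) chr5:5983683-5984308 on the plus strand. None of the 6 overlaps another annotated gene. Between the outer members lie 8 other genes, of which 4 code for proteins and 1 is a tRNA gene.

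The coding sequences are so alike that their similarity decides how far the genes can be told apart by sequencing, and their first 60 bases are shown for that reason. Each line gives the RefSeq sequence (TAIR10.1) from the ATG, 5′ to 3′, with capitals at bases that differ from the most common base of the 6 genes at that position. At 1 position the genes split 3 to 3, and there the base shared by SAUR21, SAUR22 and SAUR23 was put in capitals.
SAUR19, chr5:5963246-5963305, minus strand: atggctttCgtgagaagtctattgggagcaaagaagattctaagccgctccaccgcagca
SAUR20, chr5:5966521-5966580, minus strand: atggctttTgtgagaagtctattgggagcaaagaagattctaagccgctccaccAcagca
SAUR21, chr5:5968527-5968586, plus strand: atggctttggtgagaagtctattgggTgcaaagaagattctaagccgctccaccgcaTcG
SAUR22, chr5:5974904-5974963, minus strand: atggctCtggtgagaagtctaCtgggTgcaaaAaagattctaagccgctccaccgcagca
SAUR23, chr5:5976030-5976089, plus strand: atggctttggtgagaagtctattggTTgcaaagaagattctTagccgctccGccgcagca
SAUR24, chr5:5983840-5983899, plus strand: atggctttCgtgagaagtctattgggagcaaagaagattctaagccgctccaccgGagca
Each gene has 1 to 4 capitals among these 60 positions, the evenly split one included. Over whole coding sequences of 267 to 276 bases, the 15 pairs share 87.7% to 95.2% of positions (median 91.2%), with SAUR19 and SAUR24 the closest pair and SAUR20 and SAUR22 the most distant.

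The genes could nonetheless be separated by exact matches. Of all stretches of 100 bases within each gene's annotated span, 100% were found in no other place of the genome, and the same held at 150 bases. At 50 bases the unique share ranged from 81.5% for SAUR19 to 99.4% for SAUR22. Every stretch that was not unique was shared with another of the 6 genes. Whether such shared stretches also occur outside the 6 genes was not counted. Read length was not stated in the labels, so the summed reads of the 6 genes, which a read moving from one of them to another would leave as they were, are given with their summed level. The summed level itself could shift somewhat with such a move, since the gene spans differ.

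The upstream regions were less alike than the coding parts. Across the 250 bases before each annotated gene start, the 15 pairs shared 43.2% to 73.3% of positions (median 50.2%). The annotated starts lie at unlike distances from the ATG, so these windows need not line up between genes. How far this lowered the shares was not tested. The regions of SAUR21 and SAUR22 are shown because these genes had the smallest and the largest difference with mannitol at 27°C. Capitals mark matches to 3 searched motifs, each searched on both strands. One is CACATG, an E-box-like element of the kind that PIF proteins can bind. The others are CATATG, which resembles it in letters, and TGTCTC, the classical auxin response element.
SAUR21, chr5:5968102-5968351, plus strand: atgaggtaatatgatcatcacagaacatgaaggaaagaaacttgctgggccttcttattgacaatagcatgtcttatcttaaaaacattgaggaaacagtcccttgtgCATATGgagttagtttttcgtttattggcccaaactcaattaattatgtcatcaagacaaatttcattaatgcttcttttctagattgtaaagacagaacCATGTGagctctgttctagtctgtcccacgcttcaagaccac
SAUR22, chr5:5975088-5975337, minus strand: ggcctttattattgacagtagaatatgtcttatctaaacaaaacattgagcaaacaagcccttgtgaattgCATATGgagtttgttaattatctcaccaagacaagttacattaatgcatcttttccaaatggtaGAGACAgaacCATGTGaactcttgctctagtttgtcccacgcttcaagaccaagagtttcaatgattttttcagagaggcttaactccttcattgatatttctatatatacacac
CATATG was found upstream of 4 of the 6 genes (SAUR20, SAUR21, SAUR22 and SAUR24), against 7.12% of the 27443 gene starts examined in the same way. In each of these 4 genes a CATATG stands directly or a few bases after the same letters, CCCTTGTG. The upstream regions of such similar neighbouring genes are not independent cases, so the share over all gene starts does not measure an excess. CACATG was found in 3 (SAUR19, SAUR21 and SAUR22; 11.1% of all) and TGTCTC in 2 (SAUR20 and SAUR22; 10.9% of all). The letters CACGTG (6.49% of all), TGTCGG (4.16%) and TATAAA (47.3%) were in none of the 6 windows. A match describes letters in this window and is not a bound site.

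**Figure D1:**
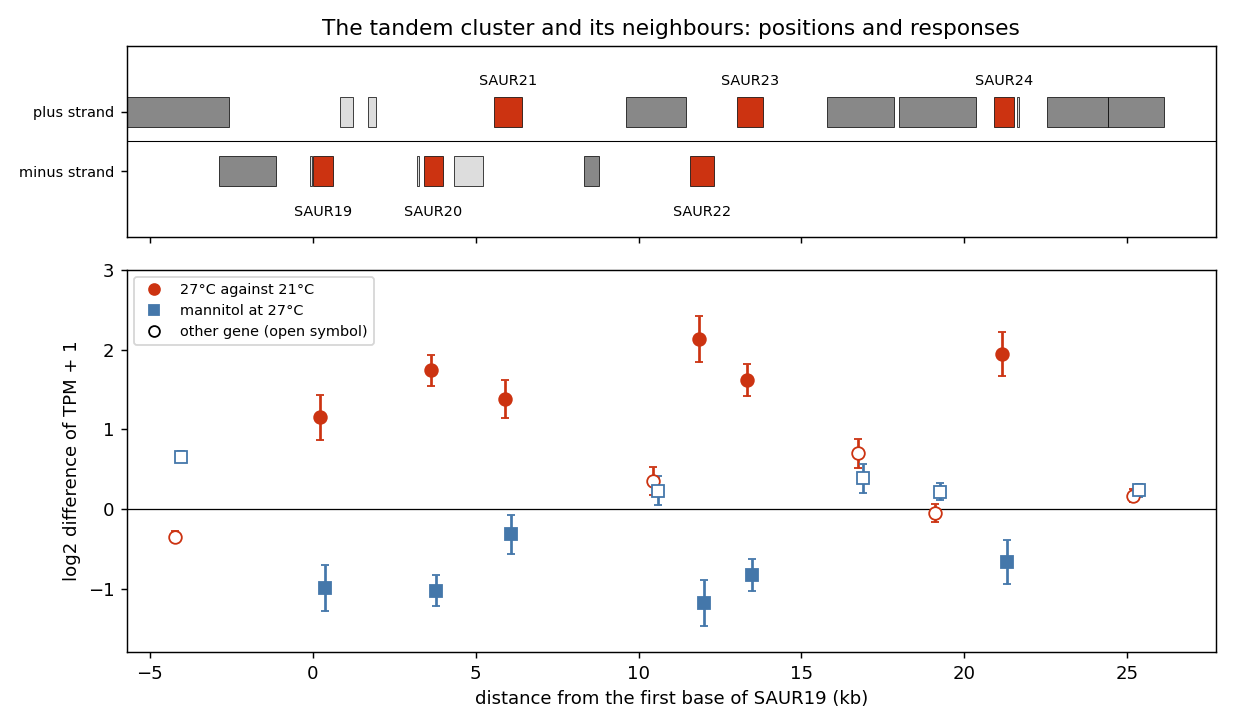
The upper panel maps annotated genes by strand against distance in kb from the first base of SAUR19, the end with the lowest coordinate (red, the 6 SAUR genes; dark grey, other genes in the expression table; light grey, genes that are not), and the lower panel plots the log2 difference of TPM + 1 with its standard error for each tested gene. The 6 SAUR genes stand above 0 for 27°C against 21°C (1.15 to 2.13) and below 0 for mannitol at 27°C (-1.18 to -0.32).

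The libraries held 13479017 to 14574122 reads on genes, as recovered from the deposited TPM values (transcripts per 1e6, a level scaled for gene length and library size). The gene length that gave whole reads was the whole annotated span, introns included, so levels are per base of gene span. At this depth 1 read in one of the 6 genes was worth 0.197 to 0.293 TPM, and a single library held 0 to 47 reads of any one of them. Over the 6 genes and 4 groups, the variance of reads between replicates was 1.38 times that of counting alone (48 residual degrees of freedom). All 6 passed the filter of 1 TPM in at least 3 libraries, with 10 to 12 libraries at or above 1 TPM and at least one such library in every group. Marker genes of shoot, root and the guard cell lineage were all detected in every group, as whole seedlings would give; nothing in the labels says whether replicates were separate batches of seedlings, so p-values measure the spread between these libraries.

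At 21°C the 6 genes were at the lower end of what these libraries could measure. Their levels summed to 9.60, 13.5 and 8.66 TPM in the 3 libraries, from 136 reads in all. The order of means ran from SAUR20 (2.85 ± 0.85 TPM, SD, n = 3) and SAUR21 (2.65 ± 1.53) through SAUR23 (1.57 ± 0.61), SAUR19 (1.49 ± 0.54) and SAUR24 (1.15 ± 0.55) to SAUR22 (0.89 ± 0.59). Each neighbouring pair in this order overlapped in its libraries. SAUR20 was the highest of the 6 in 7 of the 12 libraries of the study, and SAUR19 the lowest in 9.

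Warmth alone raised all 6 genes. Their summed level was 45.3 ± 6.77 TPM at 27°C (n = 3; 37.5, 49.5 and 49.0 TPM, from 557 reads in all) against 10.6 ± 2.58 TPM at 21°C, 4.28 times higher. In bulk RNA, more cells of a type and more RNA per cell cannot be told apart. By limma on log2(TPM + 1) with Benjamini-Hochberg adjustment over 20005 genes, 6 of the 6 passed as higher at adjusted p below 0.05, where 28.2% of all tested genes did; the 3 warm libraries stood above the 3 at 21°C for each of the 6, as for 30.8% of all tested genes. The median difference of the 6 was 1.68 on the log2 scale, against 0.09 over all tested genes.

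SAUR22 had the largest difference. Its levels were 0.22, 1.12 and 1.32 TPM at 21°C and 4.97, 8.45 and 7.98 TPM at 27°C. Every warm library was more than 3 times any library at 21°C, and the low group rested on 1, 5 and 6 reads. The log2 difference was 2.13 ± 0.29 (SE; adjusted p = 3.14e-05).

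SAUR24 measured 0.53, 1.34 and 1.58 TPM at 21°C and 5.93, 6.37 and 9.25 TPM at 27°C. The groups lay far apart, with the third warm library highest. This was a log2 difference of 1.94 ± 0.28 (adjusted p = 5.09e-05).

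SAUR20, the most abundant of the 6, measured 3.57, 3.06 and 1.91 TPM at 21°C and 9.67, 12.9 and 12.5 TPM at 27°C. No library of one group reached the other. The log2 difference was 1.74 ± 0.19 (adjusted p = 4.91e-06), the smallest p of the 6.

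SAUR23 measured 1.23, 2.28 and 1.22 TPM at 21°C and 5.89, 8.41 and 6.28 TPM at 27°C. Its groups were separate, and the log2 difference was 1.62 ± 0.20 (adjusted p = 1.52e-05). SAUR21 measured 1.97, 4.40 and 1.57 TPM at 21°C and 7.16, 8.32 and 8.57 TPM at 27°C. Its second library at 21°C stood above the other two but below every warm library, and the log2 difference was 1.38 ± 0.24 (adjusted p = 0.000332). SAUR19 measured 2.09, 1.32 and 1.04 TPM at 21°C and 3.91, 4.99 and 4.43 TPM at 27°C. Its groups did not overlap either, and its log2 difference of 1.15 ± 0.29 (adjusted p = 0.00454) was the smallest of the 6. As ratios of mean TPM, the rises ran from 2.99-fold for SAUR19 to 8.02-fold for SAUR22.

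**Figure D2:**
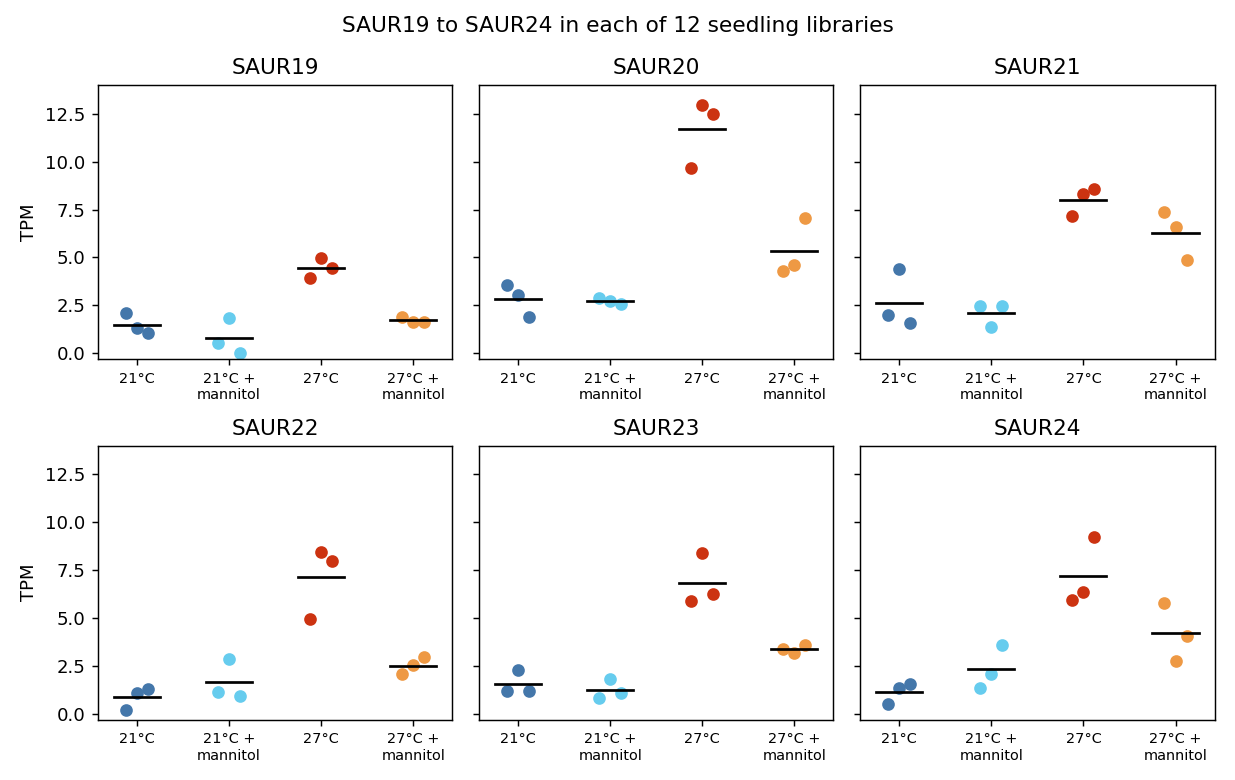
Level in TPM (linear axis) of each of the 6 genes in every library of the 4 groups; points are libraries and bars are means of 3. At 27°C without mannitol each gene stands above all its libraries at 21°C, and SAUR21 is the gene whose 2 warm groups overlap.

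Mannitol at 21°C left the summed level at 10.9 ± 1.76 TPM (9.26, 12.8 and 10.7 TPM, from 135 reads in all), 1.03 times that without it. None of the 6 passed by limma in either direction, where 15.4% of tested genes passed as higher and 4.61% as lower; 1 of the 6, SAUR24, had an unadjusted p below 0.05, and by voom on the recovered reads none passed. All 6 overlapped between the groups, where 28.0% of tested genes were higher and 11.2% lower without overlap. The intervals leave room for changes of moderate size: for SAUR20 the log2 difference was -0.02 with a 95% interval from -0.43 to 0.39, and for SAUR23 it was -0.19 (-0.62 to 0.24).

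The single genes pointed different ways. SAUR24 measured 1.38, 2.11 and 3.61 TPM with mannitol, with a log2 difference of 0.63 ± 0.28 (adjusted p = 0.131), and SAUR22 measured 1.15, 2.87 and 0.93 TPM, with 0.47 ± 0.29 (adjusted p = 0.288). SAUR19 measured 0.55, 1.83 and 0 TPM, from 2, 7 and 0 reads; the count of 0 allows up to 0.824 TPM (3 reads), counting error only. Its log2 difference was -0.58 ± 0.29 (adjusted p = 0.182), and without the second mannitol library it was -0.98 (adjusted p = 0.0104), which would pass. SAUR20 was within 2.59 to 2.86 TPM in the 3 mannitol libraries, the tightest group of any member.

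Mannitol at 27°C brought the summed level down to 23.4 ± 1.89 TPM (24.8, 21.3 and 24.2 TPM, from 294 reads in all), 0.517 times the level of 27°C alone. By limma, 4 of the 6 genes passed as lower (SAUR19, SAUR20, SAUR22 and SAUR23), where 6.8% of tested genes did. For 5 of the 6 the mannitol libraries all stood below the others, as for 9.21% of tested genes. The median log2 difference of the 6 was -0.91, against 0.17 over all tested genes.

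SAUR22 again moved most, to 2.08, 2.54 and 2.97 TPM with mannitol. All 3 values lay below the lowest warm library without it, 4.97 TPM. The difference came to -1.18 ± 0.29 on the log2 scale (adjusted p = 0.0057). SAUR20 measured 4.29, 4.58 and 7.06 TPM, below its 9.67 TPM minimum at 27°C alone. The log2 difference was -1.03 ± 0.19 (adjusted p = 0.000926).

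SAUR19 measured 1.91, 1.64 and 1.61 TPM, a narrow range back within its libraries at 21°C, with a log2 difference of -0.998 ± 0.288 (adjusted p = 0.0155; 0.0832 with a pseudocount of 0.25). SAUR23 measured 3.40, 3.20 and 3.58 TPM, between its levels at 21°C and at 27°C with no overlap to either. Its log2 difference was -0.83 ± 0.20 (adjusted p = 0.00592).

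SAUR24 and SAUR21 did not pass. SAUR24 measured 5.78, 2.76 and 4.08 TPM with mannitol, of which the highest lay just below its lowest library at 27°C alone, 5.93 TPM. Its log2 difference was -0.67 ± 0.28 (adjusted p = 0.0728), and it passed without the first mannitol library (-0.88, adjusted p = 0.0401). SAUR21 measured 7.39, 6.58 and 4.87 TPM against 7.16 to 8.57 TPM, the only one of the 6 whose warm groups overlapped, with a log2 difference of -0.32 (95% interval -0.84 to 0.20; adjusted p = 0.327). With mannitol SAUR21 stood first in the order of means, above SAUR20, and took 26.9% of the summed level against 17.8% at 27°C alone, although SAUR20 and SAUR21 overlapped in their mannitol libraries.

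**Figure D3:**
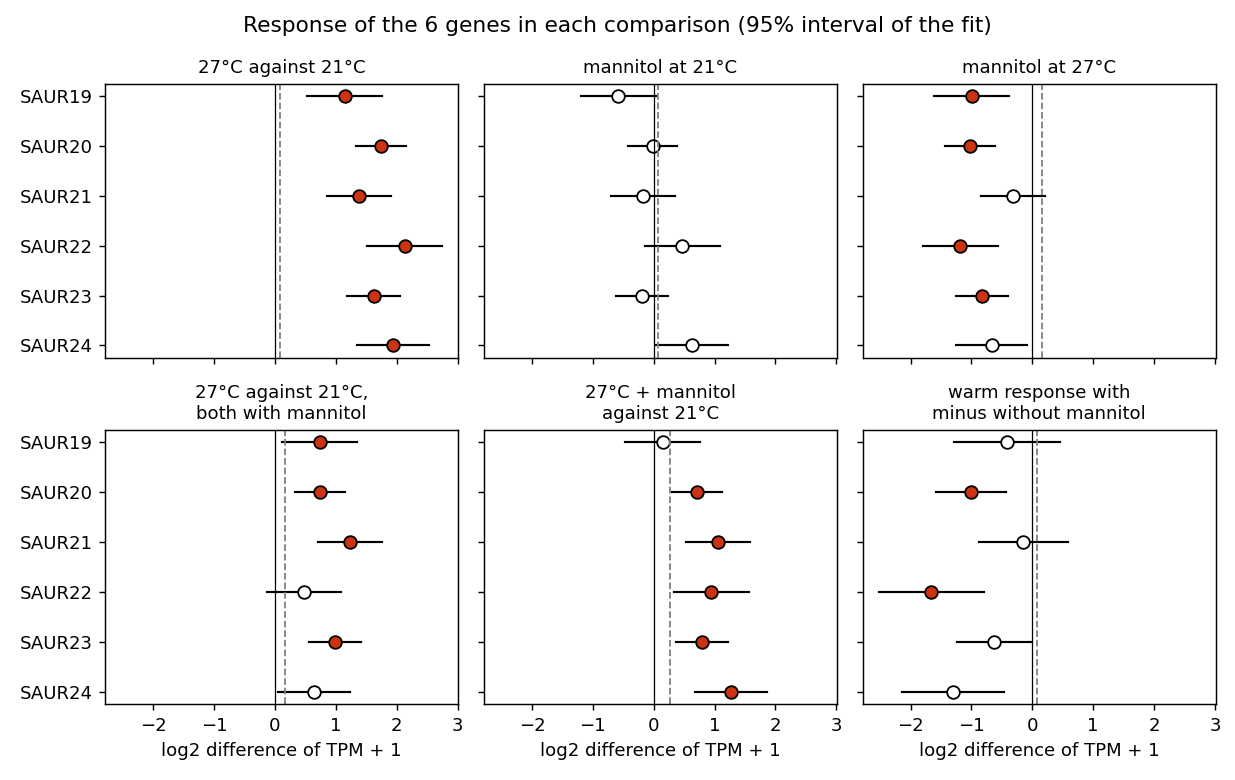
Log2 difference of TPM + 1 for each gene in each comparison, with the 95% interval of the limma fit (horizontal lines); filled points passed at adjusted p below 0.05, and the dashed line is the median of all tested genes. All 6 points are filled for 27°C against 21°C, none for mannitol at 21°C, and 4 for mannitol at 27°C.

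TPM sets the sum of each library, and that scale moved between groups. The 50 most abundant genes took 13.7% to 19.5% of a library's TPM, least with mannitol at 27°C. A median-of-ratios rescaling, which centres the bulk of genes instead, lowered the all-gene median for mannitol at 27°C from 0.17 to -0.01. On that scale 5 of the 6 passed as lower with mannitol at 27°C, SAUR24 now among them (-0.83, adjusted p = 0.0399), and SAUR21 was at -0.49 (adjusted p = 0.173). All genes together split into 5544 higher and 1361 lower on the TPM scale and into 2346 and 2983 on the other; for warmth alone the splits were 5636 and 3322 against 4405 and 4351, and 6 of the 6 passed as higher on both. The higher and lower splits were 3089 and 922 against 2069 and 1907 for mannitol at 21°C, 7496 and 3306 against 4606 and 5077 for warmth with mannitol, 9597 and 3008 against 5529 and 5467 for the combined treatment, and 486 and 538 against 314 and 740 for the interaction. Of the 6 genes, 0, 3, 4 and 2 passed in these comparisons after rescaling.

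Summed levels of tissue markers also differed between groups. The summed TPM of 7 root markers was 128 to 177 at 21°C, 217 to 227 with mannitol at 21°C, 142 to 167 at 27°C and 220 to 226 with mannitol at 27°C. The 5 shoot markers summed to 47433 to 49345, 37391 to 40498, 46473 to 48062 and 32513 to 33815 TPM in the same order, and the 3 guard cell lineage markers to 32.4 to 38.9, 23.3 to 25.4, 25.9 to 31.5 and 24.4 to 25.3 TPM. Of the root markers 2 of 7 passed as higher with mannitol at 21°C, the phosphate transporter PHT1;1 and the nitrate transporter NRT2.1, and 3 with mannitol at 27°C (2 after rescaling). Of all 20005 tested genes, 3089 passed as higher with mannitol at 21°C and 5544 with mannitol at 27°C. Without NRT2.1 the other 6 root markers summed to 127 to 174 TPM at 21°C, 204 to 210 with mannitol at 21°C, 142 to 167 at 27°C and 213 to 221 with mannitol at 27°C. Among those 6, PHT1;1 changed most in TPM. Its mean went from 52.0 to 99.2 TPM with mannitol at 21°C and from 60.5 to 107 TPM at 27°C. Most of the shoot sum was RBCS1A, with means of 31568, 25536, 28785 and 19541 TPM in the same order of groups. With warmth alone, WER (-0.92) and NRT2.1 (-1.06) of the root list, and SPCH (-0.77) and MUTE (-1.17) of the guard cell lineage, passed as lower on the log2 scale. SHR (0.23) of the root list and RBCS3B (0.18) and LHCB4.1 (0.23) of the shoot list passed as higher, but not after rescaling. RBCS1A and GLDP1 of the shoot list passed as lower after rescaling only. FAMA of the guard cell lineage averaged 22.0 TPM at both temperatures without mannitol. The part of these shifts in the SAUR results was not tested.

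Mannitol left part of the warm rise in place. With mannitol in both groups, the summed level was 2.15 times higher at 27°C than at 21°C. By limma 4 of the 6 passed as higher (SAUR19, SAUR20, SAUR21 and SAUR23), where 37.5% of tested genes did, and 3 had groups that did not overlap (SAUR20, SAUR21 and SAUR23), against 44.7% of tested genes. The median of the 6 was 0.73 on the log2 scale, against 0.16 over all tested genes. This comparison and the one of mannitol at 27°C share the libraries of 27°C with mannitol.

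SAUR21 had the largest rise here, from 2.47, 1.38 and 2.49 TPM to 7.39, 6.58 and 4.87 TPM. Its log2 difference was 1.23 ± 0.24 (adjusted p = 0.000683), close to the 1.38 without mannitol. SAUR23 rose from 0.85, 1.84 and 1.07 TPM to 3.40, 3.20 and 3.58 TPM, by 0.99 ± 0.20 on the log2 scale (adjusted p = 0.000883). SAUR20 rose from 2.59 to 2.86 TPM to 4.29 to 7.06 TPM, with 0.73 ± 0.19 (adjusted p = 0.00504; 0.0900 by voom on the recovered reads).

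SAUR22 and SAUR24, the genes with the largest warm rise without mannitol, did not pass with it. SAUR22 had a log2 difference of 0.47 (95% interval -0.14 to 1.09; adjusted p = 0.177), which passed without the second mannitol library at 21°C (0.78, adjusted p = 0.0319). SAUR24 was at 0.64 (0.05 to 1.23; adjusted p = 0.0624), which passed without the first library at 21°C (adjusted p = 0.0456), the third mannitol library at 21°C (0.90, adjusted p = 0.0187) or the second at 27°C (0.86, adjusted p = 0.0282). SAUR19 passed narrowly, at 0.73 ± 0.29 (adjusted p = 0.0433). That call was lost after rescaling (0.62, adjusted p = 0.0928), by voom (0.0729), with a pseudocount of 5 (0.0692), without the filter (0.0574), without the variance trend (0.0536), with only the 2 groups compared (0.0731) and in 7 of the 12 fits with 1 library left out: any of the 3 at 27°C with mannitol (adjusted p = 0.0758 to 0.107), replicate 1 or replicate 3 with mannitol at 21°C (0.101 and 0.234), the second at 21°C (0.0528) or the third at 27°C (0.0554).

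Set against 21°C without mannitol, the combined treatment gave a summed level 2.21 times higher. By limma 5 of the 6 passed as higher, where 48.0% of tested genes did, and the same 5 had groups that did not overlap, against 52.6% of tested genes. The exception was SAUR19, at 0.15 ± 0.29 (adjusted p = 0.669), whose sign turned after rescaling (-0.03). SAUR24 had the largest difference, 1.27 ± 0.28 (adjusted p = 0.00103), followed by SAUR21 at 1.06 ± 0.24, SAUR22 at 0.95 ± 0.29, SAUR23 at 0.79 ± 0.20 and SAUR20 at 0.71 ± 0.19. SAUR20 was at 0.48 after rescaling (adjusted p = 0.0502) and at 0.78 by voom on the recovered reads (adjusted p = 0.0884). SAUR22 was at 0.66 without the first library at 21°C (adjusted p = 0.0554).

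**Figure D4:**
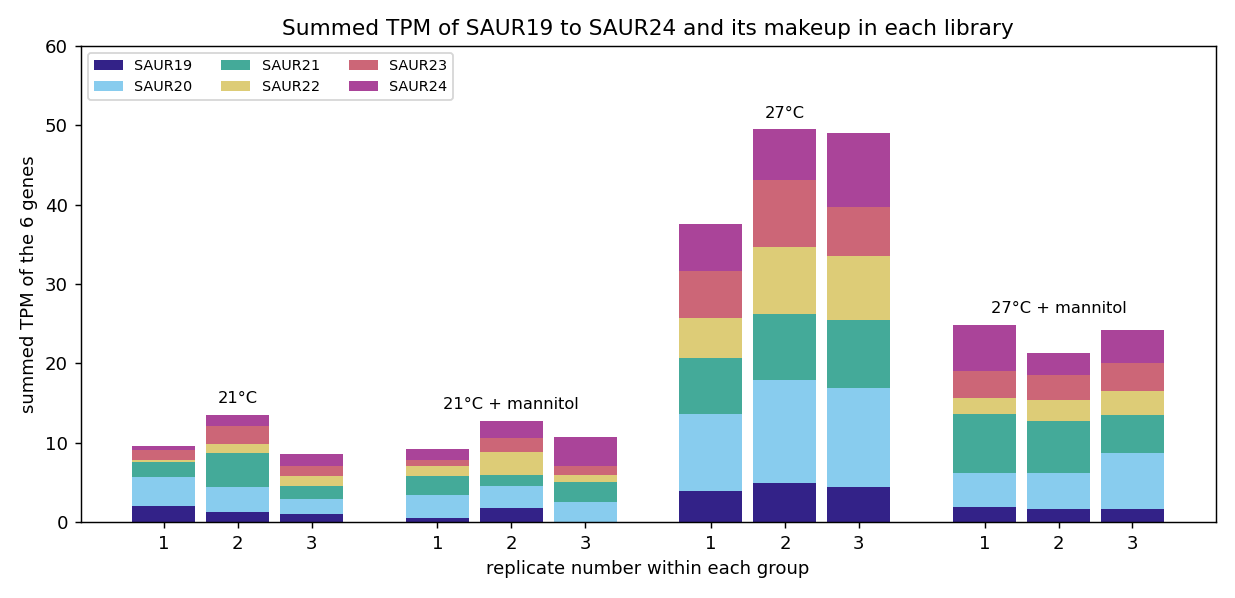
Summed TPM of the 6 genes in each of the 12 libraries (linear axis from 0), stacked by gene and grouped by treatment. The 3 libraries at 27°C reach 37.5 to 49.5 TPM, those at 27°C with mannitol 21.3 to 24.8 TPM, and the 6 at 21°C 8.66 to 13.5 TPM.

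The difference between the warm responses with and without mannitol was tested directly as an interaction. All 6 genes had a lower log2 response with mannitol, from -0.15 for SAUR21 to -1.66 for SAUR22 (median -0.82, against 0.07 over all tested genes). By limma 2 of the 6 passed as lower, where 2.69% of tested genes did: SAUR22 (-1.66 ± 0.41, adjusted p = 0.0283) and SAUR20 (-1.01 ± 0.27, adjusted p = 0.0451). SAUR24 was at -1.30 ± 0.39 (adjusted p = 0.0727), SAUR23 at -0.64 ± 0.29 (0.236), SAUR19 at -0.42 ± 0.41 (0.611) and SAUR21 at -0.15 ± 0.35 (0.852). Neither call held with a pseudocount of 0.25, without the filter on low values, without the variance trend or by voom on the recovered reads, where 0 of the 6 passed. Leaving out 1 library ended the call for SAUR20 in 9 of 12 fits and for SAUR22 in 6 of 12.

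Whether the 6 genes responded unequally was asked of each gene's log2 level relative to the mean of the other 5, by two-sided exact permutation over libraries (400 arrangements, smallest possible p = 0.005). None of 12 tests passed after Benjamini-Hochberg adjustment. A single test at the smallest possible p could not have passed over 12 tests, so the outcome does not show equal responses. Each test also averaged over both states of the other treatment, where opposite signs cancel. For SAUR22 the relative difference with warmth was 0.57 without mannitol and -0.39 with it, and for SAUR21 -0.34 and 0.52. SAUR19 came closest, with a relative difference of -0.46 with mannitol (exact p = 0.07, adjusted p = 0.66), then SAUR24 with 0.46 (exact p = 0.11, adjusted p = 0.66). Within 27°C alone, looked at after the values were seen, the relative difference with mannitol was 0.62 for SAUR21, -0.42 for SAUR22 and -0.19 for SAUR19. Each of these had an exact p of 0.1, the smallest that 3 libraries against 3 allow, and the other genes had 0.4 to 1. Over the 12 libraries each gene's log2 level followed the mean of the others, with Pearson's r from 0.77 for SAUR19 to 0.98 for SAUR23, a description over libraries that share 4 treatments.

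The genes standing among and beside the 6 gave other values. Of 14 neighbours (the 8 in between and 3 on each side), 5 were tested, and with mannitol at 27°C none of these passed as lower and 2 passed as higher, on the TPM scale (1 after rescaling). Of all 20005 tested genes, 1361 passed as lower and 5544 as higher there on the TPM scale. DRT101 (AT5G18070), between SAUR23 and SAUR24, measured 11.6 and 12.3 TPM on average at 21°C without and with mannitol, and 11.2 and 13.1 TPM at 27°C. AT5G18065, beside it, rose with warmth by 0.70 ± 0.18 on the log2 scale (adjusted p = 0.00596) and was at 0.38 with mannitol at 27°C (adjusted p = 0.117). AT5G18040, which shares the gap between SAUR21 and SAUR22 with AT5G18037 (listed at 0 in every group mean), was at 0.35 for warmth (adjusted p = 0.122). TRP1 (AT5G17990), an enzyme of tryptophan synthesis before SAUR19, fell by 0.35 with warmth (adjusted p = 0.000745) and rose by 0.66 with mannitol at 27°C (adjusted p = 5.10e-06), the opposite signs of the SAUR genes.

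Of the PP2C.D phosphatases that SAUR19-type proteins inhibit, 5 of 9 rose and 0 fell with warmth (4 and 1 after rescaling), and 4 rose and 1 fell with mannitol at 27°C (1 and 2 after rescaling). Of all tested genes, 28.2% rose with warmth. With mannitol at 27°C 5544 of 20005 rose and 6.8% fell. The phosphatase that fell with mannitol at 27°C on both scales was PP2C.D1 (AT5G02760). It measured 59.9 ± 2.69 TPM at 21°C, 61.5 ± 4.63 with mannitol, 152 ± 8.43 at 27°C and 67.0 ± 5.62 at 27°C with mannitol (SD, n = 3). Its log2 difference was 1.32 ± 0.08 for warmth (adjusted p = 1.32e-08) and -1.17 ± 0.08 for mannitol at 27°C (adjusted p = 4.50e-08). AT5G66080, another member of the group, rose with warmth from 6.90 ± 1.37 to 25.5 ± 2.80 TPM and was at 23.1 ± 1.42 TPM with mannitol at 27°C.

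Of 11 genes for the proton pumps 9 were tested. With warmth 1 rose and 1 fell (0 and 1 after rescaling), where 28.2% of all tested genes rose. With mannitol at 27°C 4 rose and 1 fell (2 and 2 after rescaling), where 5544 of 20005 tested genes rose. AHA2, a main pump of seedlings, measured 366 ± 21.7 and 559 ± 11.1 TPM at 21°C without and with mannitol, and 390 ± 59.9 and 584 ± 12.7 TPM at 27°C. AHA1 measured 370 ± 15.7, 389 ± 9.79, 450 ± 73.2 and 631 ± 13.2 TPM in the same order of groups. Both rose with mannitol at 27°C against 27°C alone, on both scales.

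Upstream, 10 of 16 growth regulators rose and 0 fell with warmth (8 and 1 after rescaling), and 4 rose and 2 fell with mannitol at 27°C (1 and 4 after rescaling). Of all tested genes, 28.2% rose with warmth. With mannitol at 27°C 5544 of 20005 rose and 6.8% fell. The 2 regulators that fell with mannitol at 27°C on the TPM scale were PIF4 and YUC8. PIF4 measured 2.20 ± 0.20, 1.66 ± 0.52, 10.096 ± 0.94 and 5.13 ± 0.70 TPM in that order of groups, and fell by 0.86 on the log2 scale with mannitol at 27°C (adjusted p = 0.000809). YUC8 measured 3.03 ± 0.51, 4.25 ± 1.30, 21.4 ± 4.05 and 10.6 ± 0.86 TPM, and fell by 0.94 (adjusted p = 0.00124). PIF5, a relative of PIF4, rose with warmth from 8.05 ± 0.70 to 22.8 ± 2.72 TPM and was at 19.8 ± 0.41 TPM with mannitol at 27°C. ELF3 was at 73.8 ± 12.01 TPM at 27°C and 102 ± 4.08 TPM with mannitol, a rise of 0.47 (adjusted p = 0.00178; 0.28 and 0.0340 after rescaling).

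Other SAUR genes were mixed. Of the 74 measured, 53 were tested. With warmth 20 rose and 5 fell (18 and 7 after rescaling), where 5636 and 3322 of all 20005 tested genes did. With mannitol at 27°C 5 rose and 15 fell (2 and 17 after rescaling), where 5544 and 1361 of all tested genes did. The median log2 difference of these other SAUR genes was 0.38 for warmth and -0.21 for mannitol at 27°C, against 1.68 and -0.91 for the 6 genes of the cluster. With mannitol in both groups 4 of the 53 rose and 14 fell in warmth (1 and 16 after rescaling), where 7496 and 3306 of all tested genes did. SAUR46 had the largest rise with warmth among the other SAUR genes, from 3.08 ± 1.01 to 25.5 ± 2.01 TPM, and was at 5.80 ± 1.57 TPM with mannitol at 27°C. SAUR41 went the other way, from 21.6 ± 3.02 to 4.28 ± 0.46 TPM with warmth, with 3.87 ± 1.01 TPM at 27°C with mannitol.

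The 8 genes whose log2 level was most like the mean of the cluster were sought among 15980 tested genes with a mean of at least 5 TPM, by Pearson's r over the 12 libraries. They were SAUR50 (r = 0.974), IAA29, an auxin-induced Aux/IAA repressor (0.974), AGL26, a MADS-box gene (0.972), DMP2, a membrane protein (0.972), STO, also called BBX24 (0.971), XCP2, a xylem cysteine peptidase (0.970), HSFA3, a heat shock factor (0.969), and AT5G62280 (0.968). Over all candidates the median r was 0.14 and 1.46% reached 0.9; the libraries of a group share their treatment, so r mostly follows the 4 group means. With the groups in the order used for the pumps, IAA29 measured 5.32, 4.48, 32.6 and 12.4 TPM on average, and SAUR50 30.3, 30.7, 63.8 and 38.9 TPM.

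**Figure D5:**
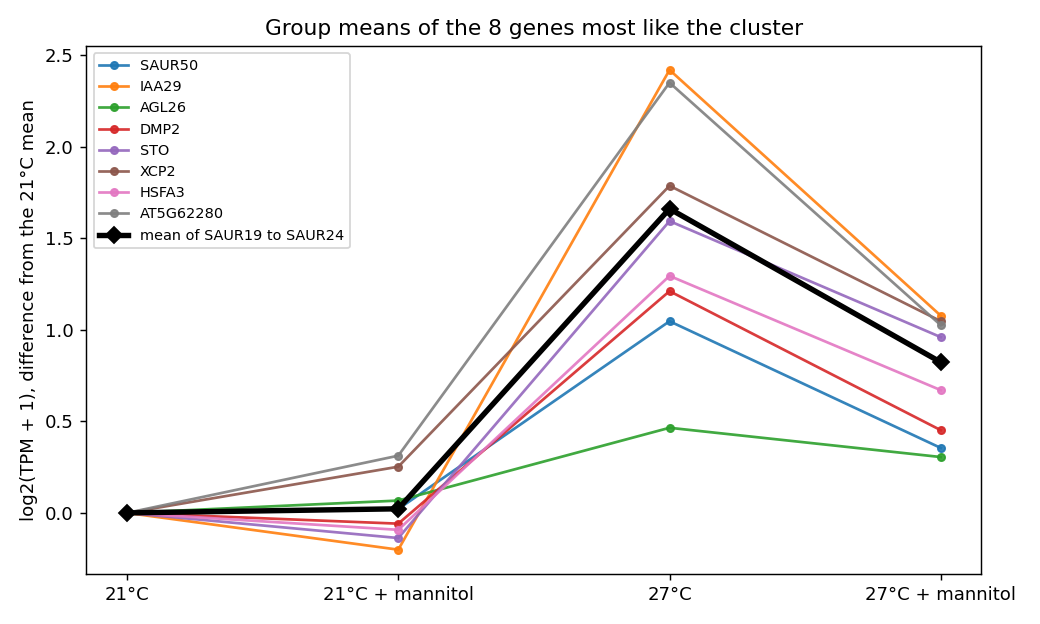
Group means of log2(TPM + 1), as the difference from the 21°C mean, for the mean of the 6 genes (black) and for the 8 genes most like it. Each line is highest at 27°C and lower at 27°C with mannitol; the lines were chosen for this likeness, and connect groups that have no order.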

How the data were processed

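RNA was extracted from whole seedlings with the Eastep Super kit and made into libraries with the NEBNext Ultra RNA kit, per the labels' protocols. HISAT2, the TAIR10 build, DESeq2 1.26.0 and fastp 0.20.1 are listed in the submitters' processing notes, with neither counting tool nor strand setting. The authors deposited TPM for 27655 genes in 12 libraries. Of 21760 genes above 0 in at least 6 libraries, 99.4% gave whole reads (tolerance 0.01) at the TAIR10.1 gene span, so that annotation was used for positions and sequences.

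Levels were tested as log2(TPM + 1) with limma 3.58.1 (R 4.3.3): 4 group means, trended variance, two-sided, 20005 genes with at least 1 TPM in at least 3 libraries (7650 left out), Benjamini-Hochberg adjustment within each of 6 comparisons, passing at adjusted p below 0.05. A pseudocount of 1 understates changes of low genes. The code was tested on simulated data. The 6 genes and all lists were chosen with earlier results of these data known. Genes named from lists were those with the largest differences among those passing, up to 4 per comparison, for warmth and for mannitol at 27°C; only some of these are described. Alternatives covered pseudocounts, filters, rescaling, variance trend, groups in the fit, replicate block, voom on recovered reads and leaving out each library. Replicate numbers were not used as pairs. Sequences and coordinates are RefSeq's; alignments used Biopython 1.88.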

Additional observations from a re-analysis of the deposited data

Results flagged for a closer look

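The warm response differed between seedlings with and without mannitol for 2 of the 6 genes, by a test of the difference itself (the interaction in limma, Benjamini-Hochberg adjustment), where 2.69% of all tested genes passed as lower. For SAUR22 the log2 response was lower with mannitol by 1.66 (difference -1.66 ± 0.41, adjusted p = 0.0283), and for SAUR20 by 1.01 (difference -1.01 ± 0.27, adjusted p = 0.0451). SAUR22 rose with warmth by 2.13 without mannitol and was 0.47 higher with it, and SAUR20 by 1.74 and 0.73. Neither call held with a pseudocount of 0.25, without the filter on low values, without the variance trend or by voom on the recovered reads. Leaving out 1 library ended the SAUR20 call in 9 of 12 fits (all but those without the first library at 21°C, the first at 27°C or the third with mannitol at 27°C), with differences from -1.20 to -0.82 over all 12. The SAUR22 call ended in 6 of 12 (without the first library at 21°C, the second with mannitol at 21°C, the second or the third at 27°C, or the first or second at 27°C with mannitol), with adjusted p up to 0.0724 there. SAUR24, at -1.30, passed without the first mannitol library at 21°C (-1.52, adjusted p = 0.0487) or the first at 27°C (-1.41, adjusted p = 0.0494).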

How the results depend on the processing

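Over the 6 genes and 6 comparisons, 658 of 720 recomputed log2 differences kept their direction and side of the threshold, 42 no longer passed, 11 newly passed and 9 changed sign. The rise of all 6 with warmth held in every alternative in which they were tested. Requiring a mean of 5 TPM left SAUR20 as the only one tested, so 1 gene passed for warmth, mannitol at 27°C, warmth with mannitol, the combined treatment and the interaction. The interaction count of 2 became 0 with a pseudocount of 0.25, without a filter, without the variance trend or by voom, 1 with the replicate block, and 0 to 3 with 1 library left out; the number of all genes passing there ranged from 659 (without the third mannitol library at 21°C) through 670 and 672 (without the second or the third at 27°C with mannitol) to 1768 (without the first at 27°C). Voom gave 2 genes, not 4, for warmth with mannitol. For mannitol at 21°C, leaving out 1 library gave 0 or 1 lower genes. Rescaling put the summed level with mannitol at 27°C at 20.8 TPM. Signs changed for SAUR19 in the combined treatment after rescaling (-0.0279) and in the interaction by voom (0.0871), and with 1 library left out for mannitol at 21°C in SAUR20 (-0.21 to 0.12) and SAUR21 (-0.39 to 0.15), and for the interaction in SAUR21 (-0.47 to 0.0665); none of these passed. Apart from the fewer genes tested or libraries used, the cause was not tested. Same-numbered libraries shared little deviation (r from -0.08 to 0.13 over 18 pairs, 2 of them over 0.1), which cannot settle whether the numbers pair them. Those 2 were replicates 1 and 2 at 21°C against the same numbers at 27°C (0.13 and 0.12). Their crossed pairs, 1 with 2 and 2 with 1, were at -0.12 and -0.16. Beside the interaction, the replicate block brought SAUR24 past the threshold for warmth with mannitol (0.64, adjusted p = 0.0426). Depth limits the members most at 21°C, where a gene had as few as 0 reads in a library.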

Other observations

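Of the SAUR genes outside the cluster, some are close to it in coding sequence. SAUR27 shares up to 79.9% of coding positions with a gene of the cluster, SAUR26 79.8%, SAUR28 78.5% and SAUR29 77.0%; all of these lie on chromosome 3. These genes were described after their values were seen. SAUR7 on chromosome 2 (78.3%) and SAUR13 on chromosome 4 (77.9%) are closer to the cluster than SAUR29, and their levels are not given here. SAUR28 measured 0.95 ± 0.44 TPM at 21°C, 4.31 ± 0.18 at 27°C and 2.05 ± 0.76 at 27°C with mannitol (SD, n = 3), and SAUR27 1.67 ± 0.94, 4.24 ± 0.94 and 2.59 ± 0.45 TPM. By limma all 4 genes on chromosome 3 rose with warmth, where 28.2% of all tested genes did. Their rises were 0.65 (SAUR26) to 1.47 (SAUR28) on the log2 scale, with adjusted p from 0.00146 (SAUR28) to 0.0449 (SAUR29). SAUR29 no longer passed after rescaling (0.68, adjusted p = 0.0650). SAUR29 passed as lower with mannitol at 27°C (-1.01 ± 0.28, adjusted p = 0.0132), and SAUR28 was at -0.83 (adjusted p = 0.0531), SAUR27 at -0.54 (0.0852), both of which passed after rescaling (adjusted p = 0.0367 and 0.0467), and SAUR26 at -0.25 (0.328).

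AT5G01830 also carries the symbol SAUR21 in the reference and was counted among the other SAUR genes by the rule on symbols. Its coding sequence shares at most 11.7% of positions with a gene of the cluster, the lowest value of all genes in that list. The share is taken over the whole alignment, gaps included, so unlike coding lengths also lower it. AT5G01830 measured 10.6 and 13.1 TPM on average at 21°C without and with mannitol, and 10.3 and 14.4 TPM at 27°C. By limma it was higher with mannitol at 27°C by 0.46 ± 0.14 on the log2 scale (adjusted p = 0.01996). It is therefore 1 of the 5 other SAUR genes counted there as rising on the TPM scale. After rescaling it no longer passed (0.28, adjusted p = 0.147).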
